A study of Mus musculus with 18 samples.

Results

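The genes described here are 10 immediate early transcription factors: Egr1, Egr2 and Egr3 of the EGR zinc finger family, Fos, Fosb, Fosl1 and Fosl2 of the FOS family, Jun and Junb of the JUN family, and Ier2. The members were taken as every probe of the authors' value table whose platform annotation carries 1 of these symbols. This gave 9 of the 24538 probes, for 8 of the 10 genes, because Fosl1 and Ier2 had no probe under their symbol. All 9 probes passed the detection filter, as did 18408 probes in all. Egr3 had 2 probes and each other gene had 1.

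The cells were C2C12, a mouse myoblast line that turns toward muscle when serum is lowered. The STAC3 RNAi cells were transfected with an RNAi against STAC3, an adaptor of the skeletal muscle calcium channel needed for excitation-contraction coupling, and the control cells with a high-GC control RNAi. Day 1 samples were taken 48 h after transfection in differentiation medium with 2% serum, and day 0 samples 24 h after transfection in growth medium with 20% serum, so medium and time after transfection cannot be told apart. There were 4 STAC3 RNAi and 4 control samples at day 1, and 4 STAC3 RNAi and 3 control samples at day 0. All groups share the line and the transfection, and the labels name no untransfected cells. Separate transfections for the replicates are not stated in the labels. The p-values therefore measure the spread of these samples, which may be technical.

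Immediate early genes are switched on within minutes of a stimulus such as serum, growth factors or stretch, without new protein synthesis. The SRF protein and its ETS partners, held at CArG boxes, and CREB family proteins at cAMP response elements relay ERK and calcium signals to their promoters. FOS proteins pair with JUN proteins to form AP-1, and EGR proteins bind GC-rich sites. In myoblasts these factors are known chiefly as responders to serum and as regulators of growth and matrix genes.

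Promoter windows from RefSeq (GRCm38.p6), the 250 bases before an annotated transcript start, were read for 6 of the 10 genes. Those of Egr2, Fosl2 and Fos are printed because Egr2 and Fosl2 rose and Fos fell in STAC3 RNAi cells at day 1. Each reads 5′ to 3′ on the gene's strand and capitals mark the motif matches. The Egr2 window is chr10:67537619-67537868 (plus strand), the Fosl2 window is chr5:32136222-32136471 (plus strand) and the Fos window is chr12:85473640-85473889 (plus strand).
Egr2: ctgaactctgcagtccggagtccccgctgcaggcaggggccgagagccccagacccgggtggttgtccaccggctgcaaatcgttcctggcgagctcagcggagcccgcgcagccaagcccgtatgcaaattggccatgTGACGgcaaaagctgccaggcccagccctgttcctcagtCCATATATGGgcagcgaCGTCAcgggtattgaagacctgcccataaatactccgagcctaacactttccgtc
Fosl2: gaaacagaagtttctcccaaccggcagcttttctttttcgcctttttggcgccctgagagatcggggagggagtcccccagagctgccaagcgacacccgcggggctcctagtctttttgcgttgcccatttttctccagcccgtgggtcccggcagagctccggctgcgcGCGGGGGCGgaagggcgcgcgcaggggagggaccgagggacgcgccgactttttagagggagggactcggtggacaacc
Fos: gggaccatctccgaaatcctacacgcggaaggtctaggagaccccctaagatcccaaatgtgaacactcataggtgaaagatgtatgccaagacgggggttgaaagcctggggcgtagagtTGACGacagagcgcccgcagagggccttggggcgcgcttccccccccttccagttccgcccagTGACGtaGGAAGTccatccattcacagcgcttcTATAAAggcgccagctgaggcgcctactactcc

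Motifs were searched on both strands, and the share of all 32851 RefSeq windows of the same length with a match stands beside each. The Egr2 window held a CArG box 72 bases before the start (1.47% of all windows) and the short cAMP response site TGACG at 111 and 55 bases (17.8%). Egr2 has 5 windows, 3 of them overlapping, and 4 of them held a CArG box. The Fosl2 window held the EGR site GCGNGGGCG 79 bases before the start (4.7%). The Fos window held TGACG at 129 and 66 bases, the ETS core GGAAGT at 59 bases (19.7%) and TATAAA at 33 bases (12.4%). Of the windows not printed, that of Fosb held TGACG at 60 and the EGR site at 50 bases, and that of Junb held TGACG at 106 and the ETS core at 23 bases. The Jun window matched none of the 7 motifs, and neither the full site TGACGTCA (1.55%) nor the AP-1 site TGANTCA (6.75%) was found in a window that was read. Egr1 was not among the genes read. The short site lies within TGACGTCA. A match says only that the letters are there.

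Levels are log2 values of the authors' table, and a value of 6.87 is where probes reached a detection p of 0.01. The values of different probes are not comparable with each other. Between 15146 and 16802 probes were detected per array. The arrays form a set of 6 and a set of 12. In the 6 the column name matches between the authors' values and the deposited bead intensities by probe ranking, and in the 12 it differs. Median bead intensities were 50.4 to 57.3 in the 6 and 65.5 to 85.5 in the 12, and the labels do not say what separates them. The 6 are STAC3 RNAi day 1 replicate 3, control day 1 replicate 1, STAC3 RNAi day 0 replicate 4 and the repeat arrays of 3 samples. Member calls that change with the set are given with it below. Stac3 itself was below the detection level in all 8 STAC3 RNAi samples, so its change has only a lower bound, the control mean less the STAC3 RNAi mean with values below the level set to it. It was at least 1.75-fold lower in STAC3 RNAi cells at day 1 (measured means 6.75 in STAC3 RNAi and 7.68 in control samples, limma adjusted p = 6.03e-07). At day 0 it was at least 1.14-fold lower (6.73 in STAC3 RNAi and 7.06 in control samples, limma adjusted p = 0.0214). Fewer cells of a type and less RNA per cell cannot be told apart in such samples.

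**Figure D1:**
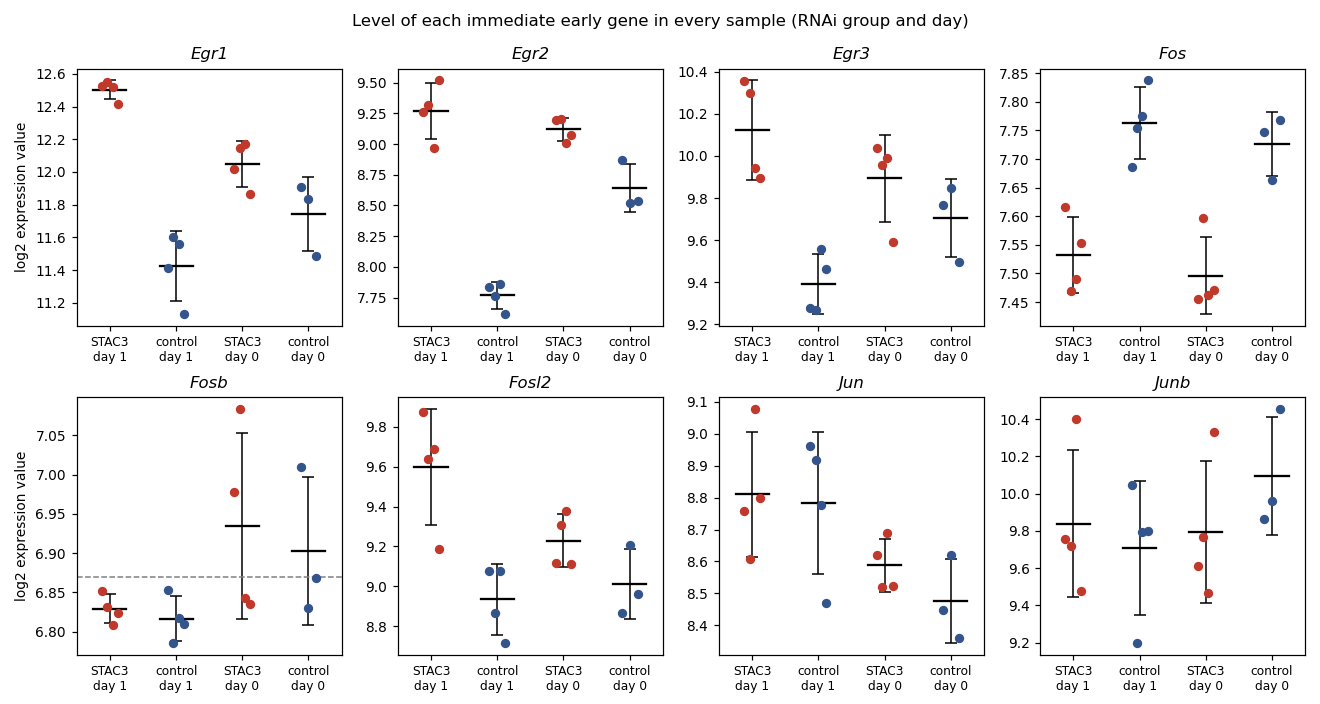
Log2 expression value (vertical axis) of the 8 genes with a probe in each of the 15 samples, by RNAi and day; repeat arrays are averaged, bars are the mean and SD, and the dashed line is the detection level of 6.87. Egr1, Egr2, Egr3 and Fosl2 of STAC3 RNAi samples lie above those of control samples at day 1 without overlap, Fos lies below, and Jun and Junb overlap.

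At day 1, 4 of the 8 measured genes were higher in STAC3 RNAi cells than in control cells and 1 was lower. Egr2 was 2.82-fold, Egr1 2.11-fold, Egr3 1.66-fold and Fosl2 1.58-fold higher, and Fos was 1.17-fold lower. Of all probes, 33.1% were called in this comparison, 16.8% higher and 16.2% lower. Counted with 1 probe for each gene, as the 8 are, 2023 of 10146 named genes were higher and 1809 lower. A call is an adjusted p below 0.05 in limma over all 18408 probes. The median log2 fold change of the 8 genes was 0.40, against 0.0092 over all probes. The members were chosen with earlier results of these data known, so their counts and medians are a description. All 5 called genes had groups that did not overlap, which 28.2% of all probes had. At day 0, 1 of the 8 genes was higher (Egr2) and 1 lower (Fos), where 12.5% of all probes were called, 6.7% higher and 5.79% lower. Of the 10146 named genes, 816 were higher and 673 lower at day 0. The median of the 8 was 0.15 at day 0, against 0.0057 over all probes.

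Egr2, a zinc finger factor best known for nerve myelination, had log2 values of 9.26, 9.32, 8.97 and 9.52 in the STAC3 RNAi samples of day 1, against 7.84, 7.76, 7.86 and 7.62 in the control samples. Every STAC3 RNAi sample was above every control sample. The log2 fold change was 1.496 (SE 0.11, 95% interval 1.27 to 1.72, limma adjusted p = 9.17e-08). The two-sided exact permutation test over samples gave p = 0.0286, the smallest it can give with these groups. At day 0 Egr2 had 9.20, 9.20, 9.01 and 9.07 in STAC3 RNAi samples, against 8.87, 8.52 and 8.54 in control samples. The groups again did not overlap, as 27.1% of all probes did not, and the log2 fold change was 0.47 (SE 0.11, limma adjusted p = 0.0122). The day 0 call was lost without control day 0 replicate 3 (0.41, limma adjusted p = 0.066) or replicate 4 (0.42, adjusted p = 0.0633). The promoter printed above with the CArG box belongs to this gene.

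Egr1, the most widely studied factor of the family and a rapid responder to serum, had 12.53, 12.55, 12.52 and 12.42 in STAC3 RNAi samples of day 1, against 11.41, 11.60, 11.56 and 11.13 in control samples. The 4 STAC3 RNAi samples lay within a narrow range (SD 0.059) above all control samples (SD 0.21). The log2 fold change was 1.08 (SE 0.11, 95% interval 0.85 to 1.30, limma adjusted p = 2.1e-06). At day 0 Egr1 had 12.02, 12.15, 12.17 and 11.86 in STAC3 RNAi samples, against 11.91, 11.84 and 11.49 in control samples. These groups overlapped, and the difference of 0.31 (SE 0.12, limma adjusted p = 0.0998) did not pass. A fit that took the array set as a block called it (0.34, limma adjusted p = 0.0437).

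Egr3, known for its part in muscle spindle development, had 10.35, 10.30, 9.94 and 9.89 in STAC3 RNAi samples of day 1, against 9.28, 9.27, 9.56 and 9.46 in control samples. The groups did not overlap, and the log2 fold change was 0.73 (SE 0.12, 95% interval 0.47 to 0.99, limma adjusted p = 0.000291). At day 0 the values overlapped, at 10.04, 9.96, 9.99 and 9.59 in STAC3 RNAi samples, against 9.77, 9.85 and 9.50 in control samples. That difference was 0.19 (SE 0.13, limma adjusted p = 0.417). The second Egr3 probe was detected on 3 arrays and lay near the detection level, at 6.78 to 7.07 in STAC3 RNAi and 6.77 to 6.83 in control samples of day 1. It was not called on either day (limma adjusted p = 0.219 at day 1 and 0.538 at day 0).

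Fosl2, which encodes the AP-1 subunit FRA2, had 9.87, 9.64, 9.69 and 9.19 in STAC3 RNAi samples of day 1, against 9.08, 8.87, 9.08 and 8.72 in control samples. All STAC3 RNAi samples were above the controls, replicate 4 by the least. The log2 fold change was 0.66 (SE 0.13, 95% interval 0.39 to 0.94, limma adjusted p = 0.000893). At day 0 the values were 9.12, 9.31, 9.38 and 9.11 in STAC3 RNAi samples, against 8.87, 9.21 and 8.96 in control samples. They overlapped, and the difference of 0.22 (SE 0.14, limma adjusted p = 0.362) did not pass.

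Fos, the founding member of its family, was lower in STAC3 RNAi cells on both days. At day 1 it had 7.62, 7.47, 7.49 and 7.55 in STAC3 RNAi samples, against 7.69, 7.75, 7.77 and 7.84 in control samples. At day 0 it had 7.46, 7.60, 7.46 and 7.47 in STAC3 RNAi samples, against 7.75, 7.66 and 7.77 in control samples. The groups did not overlap on either day. The log2 fold change was -0.23 (SE 0.053, limma adjusted p = 0.00345) at day 1 and -0.23 (SE 0.058, adjusted p = 0.0155) at day 0, where the exact permutation p was 0.0571. The day 0 call was lost without control day 0 replicate 2 (-0.22, limma adjusted p = 0.0596) or replicate 4 (-0.21, adjusted p = 0.0718), and without the second of these no member was called at day 0. Near the level of Fos a unit of log2 intensity corresponds to 0.65 to 0.78 in the authors' values, so the change is smaller here than on the intensity scale. Near Egr1 that slope is 0.93 to 0.99. Near Egr2 it is 0.80 to 0.96, so the changes of Egr2 are also smaller here than on the intensity scale.

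Fosb, a second FOS subunit, was detected on 3 arrays. It lay at 6.81 to 6.85 in STAC3 RNAi and 6.79 to 6.85 in control samples of day 1, and at 6.84 to 7.08 in STAC3 RNAi and 6.83 to 7.01 in control samples of day 0. All groups reach below the detection level, so its differences are not read as folds.

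Jun, the central JUN subunit of AP-1, had 8.76, 8.61, 9.08 and 8.80 in STAC3 RNAi samples of day 1, against 8.96, 8.92, 8.78 and 8.47 in control samples. The groups overlapped and the difference was 0.03 (95% interval -0.20 to 0.26, limma adjusted p = 0.880). At day 0 it ranged from 8.52 to 8.69 in STAC3 RNAi samples and from 8.36 to 8.62 in control samples, with a difference of 0.11 (95% interval -0.14 to 0.36, limma adjusted p = 0.619). The day 1 interval excludes changes as large as those of Egr1, Egr2, Egr3 or Fosl2.

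Junb, a JUN subunit that can act against Jun, had 9.75, 9.72, 10.40 and 9.48 in STAC3 RNAi samples of day 1, against 10.05, 9.20, 9.79 and 9.80 in control samples. At day 0 it had 9.61, 9.77, 9.46 and 10.33 in STAC3 RNAi samples, against 9.86, 9.96 and 10.45 in control samples. The groups overlapped on both days, with differences of 0.13 (SE 0.22, limma adjusted p = 0.715) at day 1 and -0.30 (SE 0.24, adjusted p = 0.493) at day 0. The 3 samples whose only array is in the set of 6 were each the highest of their group. With the array set as a block Junb was lower in STAC3 RNAi cells at day 0, by -0.37 (limma adjusted p = 0.0372).

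**Figure D2:**
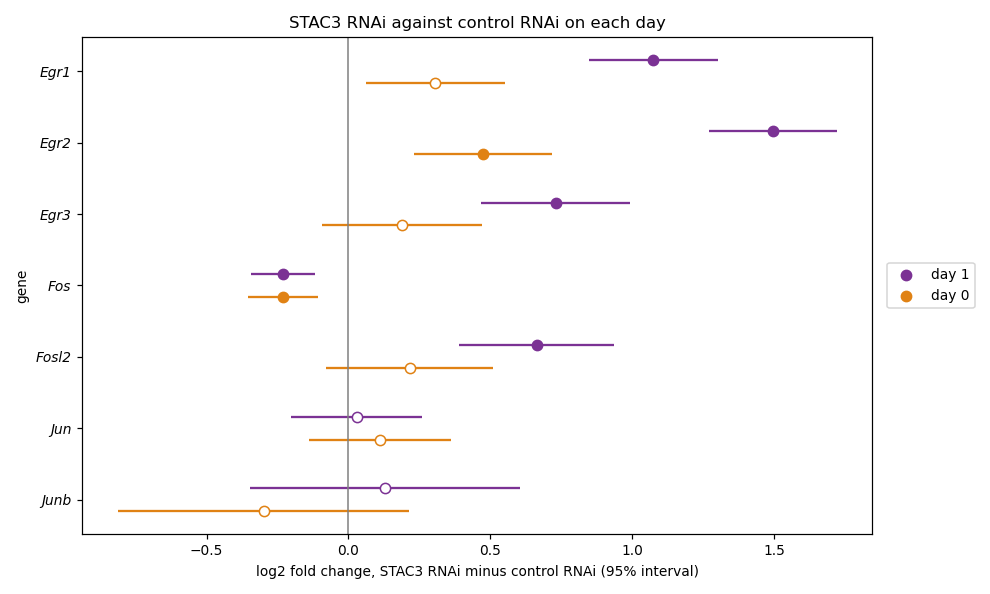
Log2 fold change of STAC3 RNAi minus control RNAi (horizontal axis) with its 95% interval for 7 genes, without the dim Fosb, at day 1 (purple) and day 0 (orange); filled points are called. At day 1 Egr2 reached 1.496 and Egr1 1.08, Fos lies at -0.23 on both days, and the intervals of Jun and Junb cross 0.

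Within the array sets, the day 1 increases were of similar size, but the sets are not independent. At day 1 the 6 arrays hold, for each RNAi, 1 sample of their own and 1 repeat array of a sample also in the 12. In the 12 arrays of the larger set the log2 fold changes were 1.66 for Egr2, 1.02 for Egr1, 0.76 for Egr3 and 0.72 for Fosl2, and in the 6 arrays they were 1.20, 1.11, 0.72 and 0.65 in the same gene order. All 4 were called in each set. Fos was lower by -0.29 in the 12 arrays (limma adjusted p = 0.00416) and by -0.11 in the 6 arrays, where it was not called (adjusted p = 0.520). At day 0 the 6 arrays hold 1 sample of each RNAi, and no member was called there. Egr2 differed by 0.52 in the 12 arrays and 0.46 in the 6 arrays at day 0, and Fos by -0.23 and -0.28 in the same order.

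The change from growth to differentiation medium was then compared under each RNAi. In STAC3 RNAi cells, 2 of the 8 genes were higher at day 1 than at day 0, Egr1 and Fosl2, and none was lower, where 41.4% of all probes were called (20.7% higher and 20.8% lower). In control cells, 2 of the 8 were lower at day 1 than at day 0, Egr2 and Egr1, and none was higher, where 35.8% were called (17.7% higher and 18.1% lower). The 2 comparisons share no samples. By the rule given below, replicate numbers were taken to pair the samples in control cells but not in STAC3 RNAi cells. With replicate number as a block over all groups, control cells had 4 of the 8 called. Egr1, Egr2 and Egr3 were lower and Jun was higher. Under that block 6679 of all 18408 probes were called in this comparison.

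Egr2 had means of 9.27 ± 0.23 at day 1 and 9.12 ± 0.096 at day 0 in STAC3 RNAi cells (SD, n = 4 each), a difference of 0.15 (95% interval -0.078 to 0.37, limma adjusted p = 0.297). In control cells it was 1.83-fold lower at day 1, with a mean of 7.77 ± 0.11 (SD, n = 4) at day 1 and 8.64 ± 0.20 (n = 3) at day 0. That log2 fold change was -0.87 (SE 0.11, limma adjusted p = 1.94e-05) and the groups did not overlap, as in 41.1% of all probes. Ordered by level, control cells at day 1 were lowest, then control cells at day 0, then both STAC3 RNAi groups, which overlapped.

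Egr1 was higher at day 1 than at day 0 in STAC3 RNAi cells, with means of 12.50 ± 0.059 at day 1 and 12.05 ± 0.14 at day 0 (SD, n = 4 each). The log2 fold change was 0.45 (SE 0.11, limma adjusted p = 0.00276) and the groups did not overlap, as in 37.6% of all probes. In control cells the means were 11.43 ± 0.21 at day 1 (SD, n = 4) and 11.74 ± 0.22 at day 0 (n = 3), and these groups overlapped. That change was -0.32 (SE 0.12, limma adjusted p = 0.0427). It was not called in 8 of 15 fits that left out 1 sample, with the array set as a block (-0.26, limma adjusted p = 0.0646) within the 12 arrays (-0.28, adjusted p = 0.113) or within the 6 arrays (-0.034, adjusted p = 0.889), where control day 0 is 1 sample. With replicate number as a block the control change was called (-0.31, limma adjusted p = 0.00206). The order of the group means was the same as for Egr2. Here the 2 control groups overlapped, as did the 2 groups of day 0, and the 2 STAC3 RNAi groups did not.

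Fosl2 was higher at day 1 in STAC3 RNAi cells by 0.37 (SE 0.13, limma adjusted p = 0.0299), although the samples of the 2 days overlapped. It was not called in 5 of 15 fits that left out 1 sample, nor within the 12 arrays (0.31, limma adjusted p = 0.133). In control cells the difference was -0.08 (95% interval -0.37 to 0.22, limma adjusted p = 0.725). Egr3 showed 0.23 (limma adjusted p = 0.158) in STAC3 RNAi cells and -0.31 (adjusted p = 0.0809) in control cells, where the replicate block gave -0.34 (adjusted p = 0.0411).

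Fos differed by 0.036 between the days in STAC3 RNAi cells and by 0.036 in control cells, with 95% intervals of -0.078 to 0.15 and -0.086 to 0.16 in the same order. Jun gave 0.22 (limma adjusted p = 0.117) in STAC3 RNAi cells and 0.31 (adjusted p = 0.0536) in control cells, where the replicate block gave 0.29 (adjusted p = 0.0412). Junb gave 0.045 (limma adjusted p = 0.900) in STAC3 RNAi cells and -0.38 (adjusted p = 0.248) in control cells. With the array set as a block, Jun was called higher in control cells (0.29, limma adjusted p = 0.0306) and Junb lower (-0.53, adjusted p = 0.000951), and within the 12 arrays Junb was also called (-0.50, adjusted p = 0.0107).

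**Figure D3:**
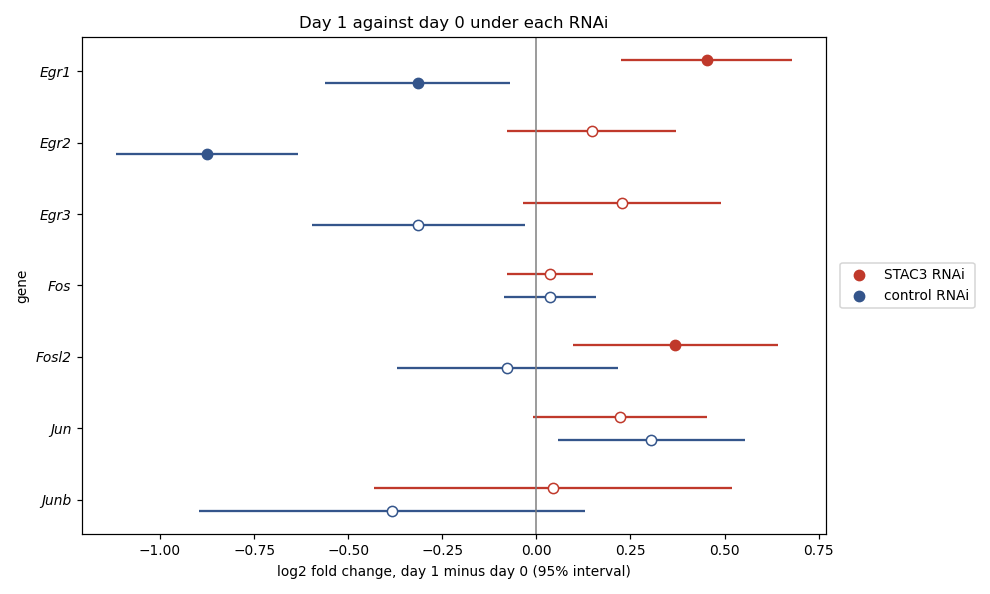
Log2 fold change of day 1 minus day 0 (horizontal axis) with its 95% interval for 7 genes, without the dim Fosb, in STAC3 RNAi cells (red) and control cells (blue); filled points are called. Egr2 lies at 0.15 in STAC3 RNAi cells and -0.87 in control cells, and Egr1 at 0.45 and -0.32 in the same order of groups.

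The effect of STAC3 RNAi at day 1 minus that at day 0 was tested directly, and 4.7% of all probes were called (2.23% higher and 2.47% lower). Of the 8 genes, Egr2 and Egr1 were called. The difference of effects was 1.02 for Egr2 (SE 0.16, limma adjusted p = 0.00200) and 0.77 for Egr1 (SE 0.16, adjusted p = 0.0112). Within the 12 arrays Egr2 held (1.15, limma adjusted p = 0.00114) and Egr1 did not pass (0.66, adjusted p = 0.0536). Within the 6 arrays neither was called (0.74 for Egr2 and 0.71 for Egr1), nor was any other probe. Egr3 gave 0.54 (limma adjusted p = 0.106) and Fosl2 0.45 (adjusted p = 0.206), so a larger effect at day 1 was not shown for them. For Fos the difference was -0.00058, with a 95% interval of -0.17 to 0.17.

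For each gene, the genes with the most similar values over the 15 samples were sought among 10138 others by Pearson's r, given as a description because the samples fall into 4 groups. For Egr2 they were Il1rn (0.973), Rab32 (0.962) and Matr3 (0.957). For Egr1 they were Zkscan17 (0.954), Sgpp1 (0.950) and Plk2 (0.948), the last of which encodes a serum-inducible kinase. Ppard, Slc48a1 and Slc6a9 were nearest to Egr3 (0.941 to 0.904), and B4galnt1, Stac2 and Ugt1a10 to Fosl2 (0.909 to 0.891). Stac2 encodes a relative of STAC3. Sacm1l, Trak1 and Uggt2 were nearest to Fos (0.940 to 0.926). Jun was nearest to Vgll2, B9d1 and Gap43 (0.900 to 0.853), and Junb to Ppp1r15a, Snx19 and Itga5 (0.906 to 0.884). The dim Fosb probe had Dcp2, Ccdc51 and Vmn1r84 (0.830 to 0.829).

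Genes upstream of the immediate early factors were read from lists. These and the lists below were chosen with earlier results of these data known, so their shares are a description. Among 12 tested serum growth factor receptors, 5 were higher and 1 lower in STAC3 RNAi cells at day 1, and 3 were higher and 2 lower at day 0. These are 50% of the list at day 1, against 33.1% of all probes, and 41.7% at day 0, against 12.5%. The lists count 1 probe for each gene, whereas the share of all probes counts every kept probe, so the units differ. Egfr, the epidermal growth factor receptor, differed by 1.38 (SE 0.074) at day 1 and 0.50 (SE 0.080) at day 0, Pdgfra by 0.93 (SE 0.074) and 0.50 (SE 0.080), and Igf1r by 0.92 (SE 0.071) and 0.63 (SE 0.076). These 3 receptors were called on both days, and the other Igf1r probe gave 0.276 at day 1 and 0.0457 at day 0. Fgfr4, below the detection level in every STAC3 RNAi sample of day 1, was at least 1.27-fold lower there (means 6.83 in STAC3 RNAi and 7.21 in control samples, limma adjusted p = 0.000554). At day 0 Pdgfrb was lower by -0.58 (SE 0.10) and Lpar1 by -0.32 (SE 0.087). Of 3 other Egfr probes, 1 had the opposite sign at day 0 and was not called. The difference of effects between the days was called for Egfr (0.87, limma adjusted p = 0.000459) and Pdgfra (0.43, adjusted p = 0.0341).

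Of 5 tested genes for SRF and its cofactors, 2 were higher on both days and none was lower, 40.0% of the list against 16.8% of all probes higher at day 1 and 6.7% at day 0. Srf itself, whose protein binds CArG boxes, differed by 0.63 (SE 0.096) at day 1 and 0.64 (SE 0.10) at day 0, and its other probe gave 0.00298 and 0.00215 in the same order of days. Elk4, an ETS partner of SRF, differed by 0.61 (SE 0.062) at day 1 and 0.45 (SE 0.068) at day 0. Its other probe gave 0.0218 at day 1 and the opposite sign at day 0 (-0.0508), where it was not called. In the ERK and stress kinase cascade, 5 of 15 were higher and 4 lower at day 1, and 1 was higher and 1 lower at day 0. That is 60.0% of the list against 33.1% of all probes at day 1, and 13.3% against 12.5% at day 0. Mapkapk2 (0.68, SE 0.11), Mapk9 (0.68, SE 0.051) and Shc1 (0.47, SE 0.054) led the increases at day 1, and Mapk14 (-0.39, SE 0.12), Map2k1 (-0.29, SE 0.10) and Mapk8 (-0.28, SE 0.074) the decreases. The other probes of Mapk9 gave 0.00763 and 0.135 at day 1, and those of Shc1 0.112 and 0.161. At day 0 the called genes were Mapk9 (0.43, SE 0.055) and Mapk8 (-0.38, SE 0.080), and the other probe of Mapk8 had the opposite sign on both days (0.0782 at day 1 and 0.0736 at day 0) and was not called. Of these genes, the difference between the days was called for Shc1 alone (0.49, limma adjusted p = 0.00274).

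Of 12 EGR corepressors and ERK feedback inhibitors, 3 were higher and 3 lower at day 1, and none was higher and 3 lower at day 0, 50% of the list against 33.1% of all probes at day 1 and 25% against 12.5% at day 0. Nab1, a corepressor that binds EGR proteins, differed by -0.68 (SE 0.070) at day 1 and -0.71 (SE 0.075) at day 0. Its 3 other probes gave -0.133, -0.045 and -0.437 at day 1 and -0.0678, -0.116 and -0.716 at day 0. Nab2, a relative of Nab1 and itself a known EGR target, was higher at day 1 by 0.39 (SE 0.069). It had 0.18 (SE 0.075, limma adjusted p = 0.129) at day 0. The phosphatase genes Dusp2 (-0.86, SE 0.13) and Dusp1 (-0.77, SE 0.11) were lower at day 1, and at day 0 too, by -0.70 (SE 0.15) and -0.48 (SE 0.12). Spred1 (0.57, SE 0.095) and Dusp7 (0.29, SE 0.098) were higher at day 1.

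Other bZIP factors, possible partners of AP-1 subunits, had 2 of 13 higher and 2 lower on each day, 30.8% of the list against 33.1% of all probes at day 1 and 12.5% at day 0. Cebpb was higher by 1.18 (SE 0.19) at day 1 and 0.81 (SE 0.20) at day 0. Jund was higher at day 0 (0.46, SE 0.13) and Mafg at day 1 (0.22, SE 0.061). Crem was lower on both days, by -0.22 (SE 0.061) at day 1 and -0.29 (SE 0.066) at day 0, Atf3 at day 1 (-0.33, SE 0.12) and Atf2 at day 0 (-0.30, SE 0.086).

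Of 26 other immediate early genes, 5 were higher and 1 lower at day 1, and 2 were higher and 3 lower at day 0, 23.1% of the list against 33.1% of all probes at day 1 and 19.2% against 12.5% at day 0. Irf1 (0.91, SE 0.085), Plk2 (0.77, SE 0.081) and Klf2 (0.48, SE 0.17) led at day 1, and Hbegf, a growth factor gene, was lower by -0.53 (SE 0.093). At day 0 Irf1 (0.49, SE 0.092) and Plk2 (0.45, SE 0.088) were higher, and Ier3 (-0.63, SE 0.18), Hbegf (-0.53, SE 0.10) and Gadd45a (-0.42, SE 0.10) lower. The median of the list was 0.11 at day 1 and 0.0025 at day 0. Between the days, 7 were higher and 7 lower at day 1 in STAC3 RNAi cells, and 3 were higher and 10 lower in control cells. That is 53.8% of the list against 41.4% of all probes in STAC3 RNAi cells, and 50% against 35.8% in control cells. The matrix signalling genes Ccn2 and Ccn1 were lower at day 1 by -1.32 and -0.96 in STAC3 RNAi cells and by -1.13 and -1.13 in control cells, and Gadd45a was higher by 2.24 in STAC3 RNAi cells and by 1.94 in control cells.

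Among 18 textbook targets of AP-1 or EGR factors, 4 were higher and 7 lower at day 1, and 2 were higher and 4 lower at day 0, 61.1% of the list against 33.1% of all probes at day 1 and 33.3% against 12.5% at day 0. Mmp2 (1.04, SE 0.18), Pdgfa (0.74, SE 0.091) and Tgfb1 (0.49, SE 0.13) were the largest increases at day 1. Plau, the urokinase gene, was lower by -1.48 (SE 0.15) at day 1 and by -1.35 (SE 0.16) at day 0, and Fn1, the fibronectin gene, by -1.13 (SE 0.13) and by -0.67 (SE 0.14). Timp1 was lower at day 1 (-0.94, SE 0.13), and the chemokine gene Ccl2 was lower by -0.81 (SE 0.17) at day 1 and by -1.19 (SE 0.18) at day 0. Odc1 (0.39, SE 0.10) and Itgav (0.31, SE 0.086) were higher at day 0. The median of the list was -0.092 at day 1 and -0.085 at day 0, so its members went both ways. Of 3 other Fn1 probes, 1 had the opposite sign at day 0 and was not called.

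**Figure D4:**
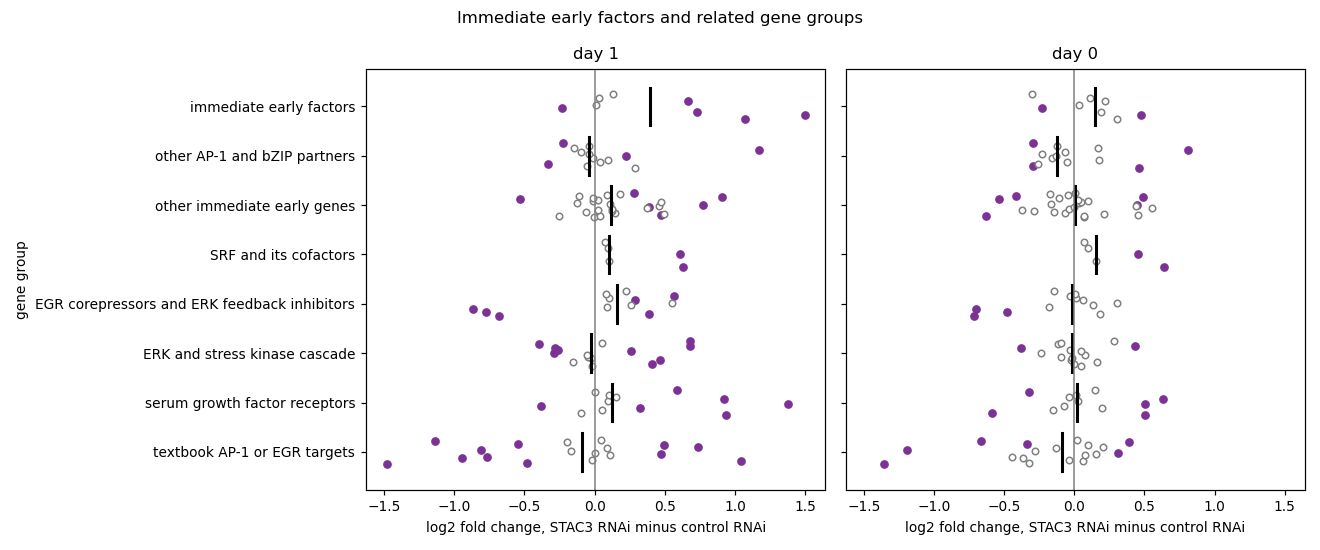
Log2 fold change of STAC3 RNAi minus control RNAi (horizontal axis) of each tested gene in 8 groups, at day 1 (left) and day 0 (right); filled points are called, open points are not, and bars are medians. The median of the immediate early factors is 0.40 at day 1 and 0.15 at day 0, and each of the other groups at day 1 has a median between -0.092 and 0.16.

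The identity of the cells was checked with markers. Of 7 myoblast markers, 6 were above the detection level in every sample and Myf5 was below it. The macrophage markers Ptprc and Csf1r were not above the level in every sample of any group, nor were the endothelial markers Cdh5 and Kdr. At day 1, 6 of 6 tested myoblast markers and 7 of 9 differentiation markers were lower in STAC3 RNAi cells, beside the higher Egr1, Egr2, Egr3 and Fosl2. Of all probes, 33.1% were called at day 1, 16.8% higher and 16.2% lower. The mean level of the differentiation markers ranged from 8.99 to 10.21 in STAC3 RNAi samples and from 10.32 to 11.59 in control samples of day 1. Of 5 fibroblast markers, Pdgfra, which is also in the receptor list, and Dcn were higher and Col3a1 lower at day 1, and the mean level of the list ranged from 8.62 to 8.91 in STAC3 RNAi and from 8.23 to 8.56 in control samples. Of 2 tested smooth muscle markers, Acta2 was higher at day 1 (0.76, limma adjusted p = 0.00194; its 4 other probes had the same sign), and the mean level of the list ranged from 10.82 to 11.23 in STAC3 RNAi and from 10.20 to 10.69 in control samples. The 1 tested adipocyte marker, Pparg, was not called on either day. The interferon response genes Oasl2 and Ifit3 were higher at day 1, 2 of 3 tested, but the other Ifit3 probe gave -0.0359 and was not called. Of 5 heat shock genes, 1 was higher and 2 lower at day 1. The part of these changes in the results above was not tested.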

How the data were processed

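RNA of 15 C2C12 samples was measured on 18 Illumina mouse bead arrays, of which 3 are repeats of a sample and were averaged with it (r of 0.9949, 0.9955 and 0.9956 with the partner, the highest of all arrays). The authors' deposited value table holds log2 values. Per the submitters' processing notes they come from lumi, and its version is not given in the sources. The deposited table of non-normalized bead intensity covers 45281 probes and carries detection p-values too, per the file headers. For 12 of its 18 columns, those of the larger array set, the probe ranking matches a value column of another name. The value table was therefore used, and the intensities by column name were only an alternative.

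Probes with a detection p below 0.01 on at least 3 arrays were kept (18408). Limma 3.58.1 in R 4.3.3 was fitted over all 4 groups, with Benjamini-Hochberg adjustment over all kept probes and calls at an adjusted p below 0.05. Single genes also had a two-sided exact permutation test over samples. With 3 or 4 samples a group, their number limits the precision. A gene is represented by its probe with the highest mean, whereas shares of all probes count every kept probe. Platform annotation gave 20685 probes 1 symbol, 8 several and 3845 none. The method was tested on simulated data. From each list, up to 3 called genes in each direction with the largest change were named. The members and lists were chosen with earlier results of these data known.

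Whether replicate numbers pair samples was read from the correlation of deviations from group means, which had to exceed 0.1 in every pair. It did between the days in control cells (0.131, 0.210 and 0.226) but in no other comparison, where the lowest pair was 0.0752 (RNAi effect, day 0), -0.0541 (day 1) and -0.202 (days, STAC3 RNAi). Over all groups the median was 0.131 for same-numbered and -0.0384 for other samples (-0.444 to 0.474). Alternatives changed the block, array set, filter, variance moderation, repeats, normalization, probe choice, source table and samples.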

Additional observations from a re-analysis of the deposited data

Results flagged for a closer look

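The Fos value of STAC3 RNAi day 0 replicate 2 was 7.596, and the nearest of the other 3 samples was 7.47. This gap is 0.892 of the range of the group, which passes Dixon's test. Among 27 combinations of probe and group tested, it was the 1 that passed, and chance alone gives about 1 in 20. The sample was nonetheless below every control sample of day 0.

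The effect of STAC3 RNAi on Egr2 differed between the days by 1.02 (limma adjusted p = 0.00200), with log2 fold changes of 1.496 at day 1 and 0.47 at day 0. The effect on Egr1 differed by 0.768 (limma adjusted p = 0.0112), with 1.08 at day 1 and 0.31 at day 0.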

How the results depend on the processing

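The day 1 increases of Egr1, Egr2, Egr3 and Fosl2 were called in all 15 fits that left out 1 sample and in all 10 other alternatives that use the value table. Fos was called in all of these at day 1 except within the 6 arrays. The counts of genes called among the 8 were 5 at day 1 and 2 in each other comparison. When 1 sample was left out they ranged from 5 to 5 (STAC3 RNAi against control, day 1), 0 to 2 (day 0), 1 to 2 (day 1 against day 0 in STAC3 RNAi), 1 to 3 (the same in control) and 2 to 3 (difference of effects). With replicate number as a block, 4 were called between the days in control cells, and Egr1 was called at day 0 (0.31, limma adjusted p = 0.00789). No other count moved by over 1.5 times under that block. With the array set as a block, 4 were called at day 0, where 2782 of all 18408 probes were called. Within the 12 arrays, 1 was called between the days in STAC3 RNAi cells and 1 for the difference of effects. Within the 6 arrays, the counts were 0 at day 0, 1 between the days in control cells and 0 for the difference. Without the detection filter, and with first arrays only, 1 was called between the days in control cells. From the non-normalized intensities by column name, 0 were called in every comparison.

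None of the values that changed direction was called. For Junb between the days in STAC3 RNAi cells they were -0.047 (array set as a block), -0.057 (12 arrays), -0.11 (6 arrays) and -0.026 (first arrays only). For the Fos difference of effects they were 0.0073 (array set as a block), 0.17 (6 arrays) and 7.28e-06 (quantile normalization). Jun at day 1 gave -0.00062 within the 12 arrays. Between the days in control cells, the 6 arrays gave -0.079 for Fos, 0.00088 for Fosb and 0.053 for Fosl2. When 1 sample was left out, Fosb at day 0 ranged from -0.017 to 0.086, Fosl2 between the days in control cells from -0.15 to 0.020, the Fos difference from -0.029 to 0.033 and the Fosb difference from -0.073 to 0.030. Junb ranged from -0.14 to 0.22 between the days in STAC3 RNAi cells and from -0.058 to 0.25 at day 1, and Jun at day 1 from -0.076 to 0.096. Of 600 such values of single genes, 559 kept their direction and side of the threshold, as did 363 of 395 under other alternatives. The causes were not tested.

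Over all probes, the 6 arrays gave 1929 calls at day 1, 9 at day 0, 3003 between the days in STAC3 RNAi cells, 2108 in control cells and 0 for the difference, with 6 arrays in place of 18. The intensities by column name gave 589 calls between the days in STAC3 RNAi cells and 0 in the other comparisons. Dim values limit Fosb and the second Egr3 probe, and detection on every array dropped Fosb.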
